A study of Homo sapiens with 36 samples.

Results

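DDR-Sen at D16 was compared with DDR-Sen at D6 and D8. DDR-Sen is DNA damage response-dependent senescence, induced with doxorubicin (DXR) in normal fibroblasts of human lung, the strain WI-38. The comparison took the 2 D16 libraries against the 4 libraries of D6 and D8, chosen by their labels, which made 6 of the 36 small RNA libraries of the study, and it ran over all 1508 listed miRNAs. Of these, 360 passed the low-count filter and were tested. It addressed what still changes in the miRNA profile between days 6 to 8 and day 16, when the cells had stayed in culture long after the damage.

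Proliferating WI-38 cells received 250 nM DXR for 24 h, were washed, and were harvested 6, 8 or 16 days after the washout, with 2 biological replicates each. The study also sampled earlier days, the same days after a detergent (SDS) that damages the plasma membrane (PMD-Sen), proliferating untreated cells (Ctrl) and cells in replicative senescence (RS). Ctrl is a single untreated condition without a day, so the time after DXR and the time in culture cannot be told apart here. In bulk RNA, a smaller share of cells that make a miRNA and less of it per cell cannot be told apart either.

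The 6 libraries held 323230 to 558758 counts each. CPM is each count scaled to a library total of 1e6 after TMM, edgeR's normalization factor, so it measures a share of the miRNA pool. Replicate log2 CPM correlated with r of 0.981 (D6), 0.985 (D8) and 0.986 (D16) across the tested miRNAs, and the replicates of every day differed by more than counting error, with a chi-square per degree of freedom of 7.25, 7.24 and 18.3. The 7 fibroblast markers (miR-21-5p, miR-22-3p and members of the miR-199, miR-214, miR-143 and miR-145 genes) summed to 68085 to 89785 CPM at D6 and D8 and to 91376 and 110176 CPM at D16. The 7 epithelial markers summed to 27.2 to 66.4 CPM and to 33.7 and 44.1 CPM, with 2 of the 7 at 0 in all 6 libraries. The 3 blood markers present in the table, miR-451a, miR-223-3p and miR-150-5p, summed to at most 9.22 CPM. On a wider list miR-486-5p, which is abundant in red blood cells, read 634 to 857 CPM and then 598 and 395 CPM. The endothelial miR-126 arms summed to 70.4 to 143 CPM and then to 135 and 155 CPM, and the part of other cells in the results was not tested.

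A miRNA hairpin yields a 5p and a 3p arm, and the arm loaded into Argonaute pairs with mRNAs mainly through its seed, bases 2 to 8. In senescent fibroblasts miRNAs are known to take part in the cell cycle arrest and in the inflammatory secretory programme. miR-155-5p and the miR-146 pair belong to the NF-kB response, the miR-17-92 cluster is a proliferation-associated cluster, and the 14q32 miRNAs come from the maternal allele of an imprinted locus.

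The sequences below are those of the miRNAs the comparison turns on, from RefSeq (build GRCh38.p14), 5′ to 3′, with the seed in capitals. Of the 24 miRNAs named by the rule of the comparison, 22 were matched. The other two are miR-668-3p and miR-4286. The first group holds the 3 miRNAs that passed the adjusted test, followed by miRNAs that share a seed with one of them.
miR-155-5p: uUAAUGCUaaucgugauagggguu
miR-29b-1-5p: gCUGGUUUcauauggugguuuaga
miR-92a-3p: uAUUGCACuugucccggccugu
miR-92b-3p: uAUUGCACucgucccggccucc
miR-25-3p: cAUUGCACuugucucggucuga

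The second group holds the pair at the head of the miR-221/222 cluster, which share 1 seed, and 4 other miRNAs that lay lower at D16.
miR-221-3p: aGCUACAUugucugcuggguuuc
miR-222-3p: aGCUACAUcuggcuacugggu
miR-106b-3p: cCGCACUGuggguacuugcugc
miR-574-5p: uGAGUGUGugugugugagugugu
miR-31-5p: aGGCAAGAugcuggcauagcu
miR-365a-5p: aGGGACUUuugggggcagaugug

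The third group holds miRNAs that lay higher at D16 and miR-27a-3p, which overlapped between the groups and is shown because it shares its seed with miR-27b-3p. A seed is also shared by miR-146a-5p and miR-146b-5p.
miR-146b-5p: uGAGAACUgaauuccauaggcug
miR-146a-5p: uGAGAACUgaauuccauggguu
miR-146b-3p: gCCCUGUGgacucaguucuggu
miR-27b-3p: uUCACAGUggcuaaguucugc
miR-27a-3p: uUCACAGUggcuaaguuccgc
miR-181a-5p: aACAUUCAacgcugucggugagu
miR-503-5p: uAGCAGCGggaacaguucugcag
miR-410-3p: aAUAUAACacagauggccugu
miR-494-3p: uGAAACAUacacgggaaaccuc
miR-379-5p: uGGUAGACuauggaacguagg

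At D16, 3 miRNAs were downregulated and 0 upregulated. miR-155-5p, miR-29b-1-5p and miR-92a-3p passed the quasi-likelihood test of edgeR after Benjamini-Hochberg adjustment across the 360 tested miRNAs (0.833%). For higher miRNAs the adjusted count was 0 in edgeR and in DESeq2, and 2 with total counts in place of TMM or without a filter. An unadjusted p below 0.05 was reached by 48 miRNAs (13.3%), of which 21 (5.83%) were higher and 27 (7.5%) lower. In 118 miRNAs (32.8%) the D16 libraries did not overlap the earlier ones, 52 above (14.4%) and 66 below (18.3%). By the thresholds of the study, more than 2-fold at an unadjusted p under 0.05, there were 6 higher (1.67%) and 6 lower miRNAs (1.67%), 12 in all (3.33%). The median log2 fold change of all tested miRNAs was -0.06. These tests took the spread from all 18 conditions, which gave a biological coefficient of variation of 20.9%.

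The number of calls depended on which libraries entered the fit. With only the 6 libraries in the fit, edgeR called 40 of 310 miRNAs at adjusted p (12.9%), 18 higher (5.81%) and 22 lower (7.1%), at a coefficient of variation of 12.3% and with 3 residual degrees of freedom. That fit also changed the filter and the normalization, and which of these changes moved the count was not tested. The 3 miRNAs called with all libraries were among the 40. Only 8 of the 40 differed more than 2-fold. The values below come from the fit of all 36 libraries unless the 6-library fit is named.

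**Figure D1:**
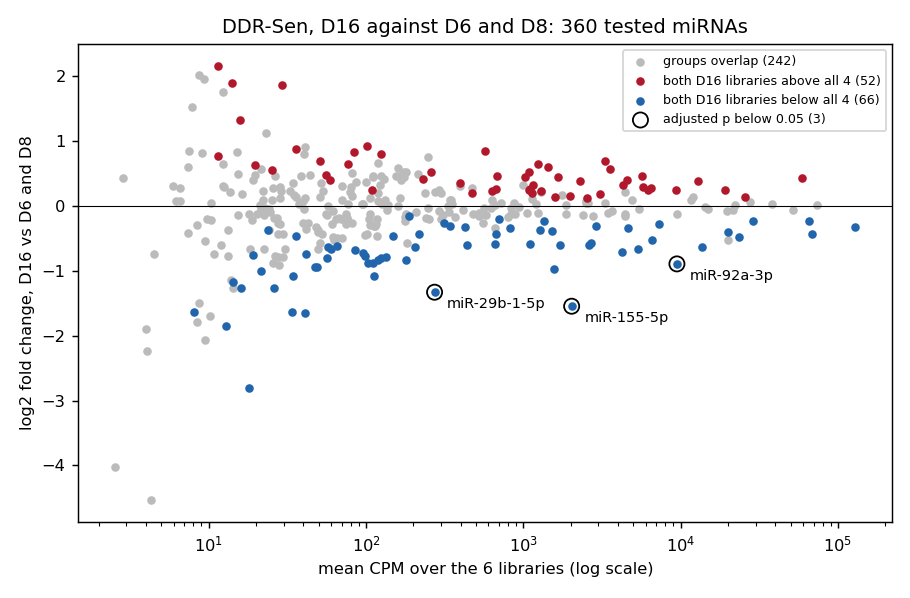
Log2 fold change of D16 against D6 and D8 (y axis) against the mean CPM of the 6 libraries (x axis, log scale), 1 point per tested miRNA, coloured by whether the 2 D16 libraries lay above (52) or below (66) all 4 libraries of D6 and D8. The circled points are the 3 miRNAs called at adjusted p, with log2 fold changes of -1.55, -1.33 and -0.89, while larger fold changes occur mostly at low CPM, where counting error is large.

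miR-155-5p is encoded at chr21:25573983-25574006 (+ strand, GRCh38), in an exon of its host lncRNA MIR155HG, and is an immune and NF-kB-responsive miRNA. It read 2767 and 3248 CPM at D6, 2115 and 2274 CPM at D8, and 948 and 814 CPM at D16. Both D16 libraries lay well below all 4 earlier ones, and the D8 libraries lay between the D6 and the D16 libraries. The log2 fold change was -1.55 (SE 0.24, n = 2 against 4, adjusted p = 0.000135), a 2.92-fold lower level. It passed the adjusted test against D6 alone (log2 fold change -1.77, adjusted p = 6.56e-05) and against D8 alone (-1.32, adjusted p = 0.00722). Ctrl held 8817 and 9893 CPM, and RS held 1587 and 633 CPM, so the D16 values fell inside the range of the RS libraries. The call held in all 15 alternative settings, with adjusted p up to 0.0401. The other arm, miR-155-3p, was at 0 in 5 of the 6 libraries and was not tested.

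miR-29b-1-5p is the 5p arm of the miR-29b-1 hairpin and lies at chr7:130877507-130877530 (- strand), in an exon of the lncRNA LINC-PINT. It read 419 and 356 CPM at D6, 294 and 298 CPM at D8, and 155 and 115 CPM at D16. The groups did not overlap. The log2 fold change was -1.33 (SE 0.29, adjusted p = 0.0144), 2.51-fold lower, with -1.52 against D6 (adjusted p = 0.00951) and -1.14 against D8 (adjusted p = 0.214). Ctrl held 652 and 531 CPM, and the DDR-Sen libraries from D0 to D4 ranged from 252 to 592 CPM. The D6 and D8 libraries lay within that range and both D16 libraries below it. Leaving out DDR-Sen D6 replicate 1, D16 replicate 1 or D16 replicate 2 ended the call, with adjusted p of 0.0528, 0.058 and 0.763.

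The rest of the miR-29 family, whose 3p arms repress collagen and other matrix genes, gave other values than miR-29b-1-5p. The abundant guide miR-29a-3p read 10050 to 12693 CPM at D6 and D8 and 11826 and 13662 CPM at D16 (log2 fold change 0.14, SE 0.21). miR-29b-3p, which shares its hairpin with miR-29b-1-5p and comes from a further hairpin too, read 29.8 to 57.2 CPM and then 69.9 and 67.0 CPM, both above all 4 (0.48, SE 0.46, adjusted p = 0.681). miR-29a-5p, the other arm of the miR-29a hairpin at chr7:130876786-130876807 in an intron of LINC-PINT, lay on the same side as miR-29b-1-5p. It held 4 counts over both D16 libraries against 29 over the 4 earlier ones, a ratio of 0.261 (95% counting interval 0.0666 to 0.742), and did not pass the adjusted test (adjusted p = 0.374). The 2 5p arms from this stretch of chromosome 7 were below all 4 earlier libraries, and neither of their 3p arms was. Of all tested miRNAs, 18.3% lay below all 4 and 14.4% above. The difference between the arms was not tested.

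miR-92a-3p is encoded at 2 loci, chr13:91351361-91351382 in MIR17HG, the host of the miR-17-92 cluster, and chrX:134169544-134169565 in the miR-106a-363 cluster. It read 12414 and 11743 CPM at D6, 9909 and 10700 CPM at D8, and 6783 and 5235 CPM at D16. The groups did not overlap, and the D8 libraries again lay between. The log2 fold change was -0.89 (SE 0.20, adjusted p = 0.0155), 1.86-fold lower, with -1.01 against D6 (adjusted p = 0.014) and -0.78 against D8 (adjusted p = 0.21). Leaving out D6 replicate 1, D8 replicate 2, D16 replicate 1 or D16 replicate 2 ended the call, with adjusted p of 0.0528, 0.054, 0.058 and 0.763. Ctrl held 20955 and 22768 CPM and RS 7154 and 4829 CPM.

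The 2 other tested miRNAs with the AUUGCAC seed of miR-92a-3p also lay below all 4 earlier libraries, as did 18.3% of all tested miRNAs. miR-92b-3p had a log2 fold change of -0.61 (SE 0.28, adjusted p = 0.353), and miR-25-3p had -0.33 (SE 0.22, adjusted p = 0.535). Neither passed the adjusted test, and miR-92b-3p passed it in the 6-library fit (adjusted p = 0.0237). The 3 sequences differ in few bases, and whether reads of one were in part counted for another was not tested.

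The miR-17-92 cluster and its paralogues, miR-106a-363 and the MCM7-hosted miR-106b-25, are transcribed with MYC and E2F activity in cycling cells, and 13 of their 20 listed members were tested. Of these, 10 had a lower mean at D16, 5 lay below all 4 libraries and 1 above (18.3% and 14.4% of all tested miRNAs did so), and the median log2 fold change was -0.54 against -0.06 overall. Only miR-92a-3p passed the adjusted test. miR-17-5p read 125 to 218 CPM and then 82.8 and 91.9 CPM (-0.79, SE 0.31), and miR-20a-5p read 78.6 to 137 CPM and then 69.9 and 63.2 CPM (-0.73, SE 0.33). Both were without overlap and had unadjusted p below 0.05. The abundant miR-93-5p differed little, with 1677 to 2161 CPM and then 1978 and 1538 CPM (-0.12, SE 0.14). The median of these clusters was -0.09 without D6 replicate 1, -0.36 without D8 replicate 2, and -0.30 and -0.33 without D16 replicate 1 and 2, and it stayed negative in all 15 settings.

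miR-106b-3p lies in an intron of MCM7, a DNA replication licensing gene, at chr7:100094002-100094023 (- strand). It read 133 and 166 CPM at D6, 97.8 and 146 CPM at D8, and 72.5 and 55.5 CPM at D16. The log2 fold change was -1.08 (SE 0.31, adjusted p = 0.0674, and 0.0284 in the 6-library fit). Its partner miR-106b-5p read 54.2 to 187 CPM and then 111 and 144 CPM, with overlapping groups and a log2 fold change of 0.20 (SE 0.39). The arms of this hairpin thus had fold changes of opposite sign, a difference that was not tested.

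**Figure D2:**
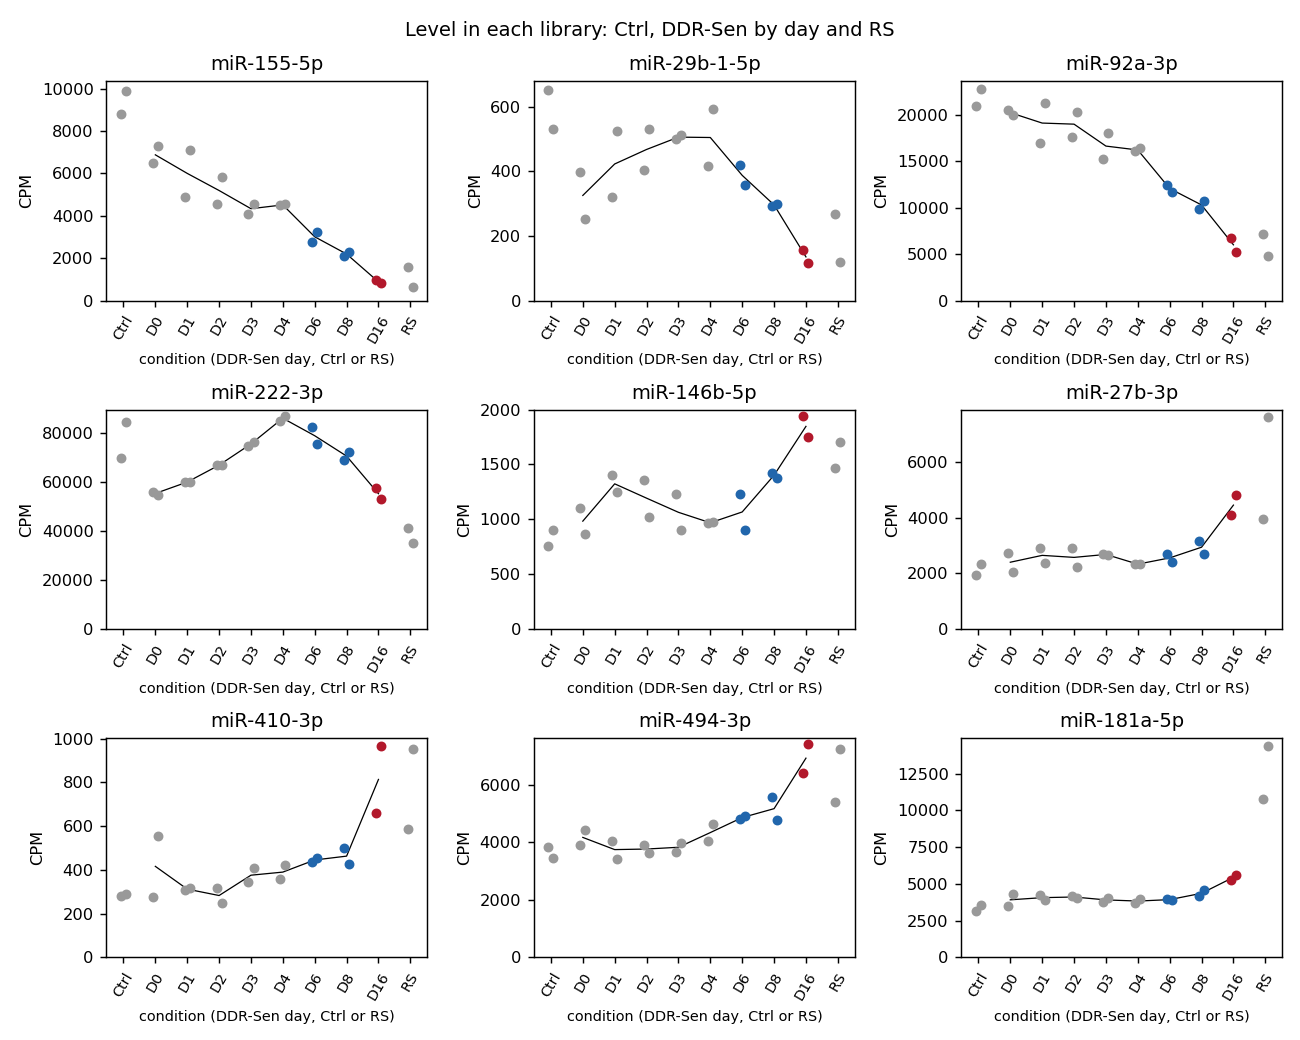
CPM (y axis, from 0) of 9 miRNAs in each library of Ctrl, DDR-Sen D0 to D16 and RS (x axis, days as equally spaced categories), with D6 and D8 in blue, D16 in red and a line through the DDR-Sen means. miR-155-5p fell from 2767 and 3248 CPM at D6 to 948 and 814 CPM at D16, and for miR-410-3p both D16 libraries, at 660 and 967 CPM, stood above the 426 to 501 CPM of D6 and D8.

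The miR-221/222 cluster on the X chromosome, in introns of MIR222HG, represses cell cycle inhibitors such as p27 and supplied 1 of the 3 most abundant miRNAs of the 6 libraries. miR-222-3p read 82612 and 75444 CPM at D6, 69052 and 72354 CPM at D8, and 57690 and 52968 CPM at D16 (log2 fold change -0.43, SE 0.14, adjusted p = 0.118). miR-221-3p read 29370 and 24310, then 25916 and 23457, then 18627 and 18228 CPM (-0.48, SE 0.14, adjusted p = 0.0674). Both were without overlap and missed the adjusted threshold with TMM and the filter, and both passed it in the 6-library fit (adjusted p = 0.0064 and 0.00971). All 4 arms of the cluster had negative fold changes (46.1% of all tested miRNAs were positive), and 3 lay below all 4 earlier libraries (18.3% overall). In the DDR-Sen series miR-222-3p had been 55972 and 54881 CPM at D0 and 85225 and 87148 CPM at D4, so the D16 values lay near those of D0.

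The remaining miRNAs named by the rule on the lower side lay below all 4 earlier libraries and had adjusted p above 0.05 in edgeR with TMM and the filter on all 36 libraries. In the 6-library fit all of them except miR-708-5p (adjusted p = 0.064) were called, with adjusted p of 0.00426 for miR-31-5p, 0.00548 for miR-574-5p, 0.0366 for miR-365a-5p, 0.0385 for miR-130b-5p and 0.0404 for miR-4286. miR-574-5p, from an intron of FAM114A1, came closest, with 4261 to 5148 CPM at D6 and D8 and 3448 and 2494 CPM at D16 (log2 fold change -0.71, SE 0.19, adjusted p = 0.0592). It was called in 7 of 15 alternatives, the Wald test of DESeq2 among them. miR-31-5p, a miRNA lost with the CDKN2A region in many tumours, read 5095 to 6721 CPM and then 3547 and 4103 CPM (-0.66, SE 0.22, adjusted p = 0.122). miR-130b-5p read 178 to 242 CPM and then 114 and 121 CPM (-0.84, SE 0.24, adjusted p = 0.0674), and its partner miR-130b-3p also lay below all 4 (-0.62, SE 0.35).

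miR-708-5p, from an intron of TENM4, read 111 to 164 CPM and then 75.1 and 82.4 CPM (-0.83, SE 0.30, adjusted p = 0.19). miR-4286, a name whose reads can derive from other small RNAs, read 32.5 to 59.0 CPM and then 20.7 and 7.66 CPM (-1.64, SE 0.53, adjusted p = 0.12), and its log2 fold change was -1.04 without D16 replicate 2 and -2.39 without D16 replicate 1. miR-365a-5p rested on few reads, with 3 counts over the D16 libraries against 43 over the 4 earlier ones, a ratio of 0.132 (95% counting interval 0.0262 to 0.412), and it was called in 3 of 14 alternatives. Its fitted log2 fold change was -3.50 without D16 replicate 1 and -2.22 without D16 replicate 2. Its seed is shared by miR-365b-5p, which lay below all 4 as well (-0.88, SE 0.51).

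On the higher side, both arms of the miR-146b hairpin at chr10:102436520-102436578 were named by the rule. miR-146b-5p, a negative feedback regulator of IRAK1 and TRAF6 in NF-kB signalling, read 1232 and 902 CPM at D6, 1424 and 1380 CPM at D8, and 1942 and 1753 CPM at D16. Both D16 libraries lay above all 4, with a log2 fold change of 0.60 (SE 0.24, adjusted p = 0.277). miR-146b-3p read 10.2, 14.8, 19.6 and 16.3 CPM in the 4 earlier libraries and 69.9 and 44.1 CPM at D16 (1.87, SE 0.52, adjusted p = 0.0674), from 3 to 10 counts in each earlier library and 27 and 23 counts at D16. In the same interval of PMD-Sen the log2 fold changes were 1.38 for miR-146b-5p and 1.96 for miR-146b-3p (adjusted p = 0.00105 and 0.0889), and the test of the difference between the inducers gave adjusted p of 0.862 and 0.984. The PMD-Sen call of miR-146b-5p was lost with only the 6 PMD-Sen libraries in the fit. In the 6-library fit of DDR-Sen both arms passed the adjusted test (adjusted p = 0.00971 each). For DDR-Sen, miR-146b-3p was also called with total counts and with the GC correction, 3 of 15 alternatives in all. miR-146a-5p, which has the same seed, was far less abundant at 13.7 to 29.8 CPM and then 33.7 and 30.6 CPM, again above all 4 (0.55, SE 0.50).

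Of 13 miRNAs listed for NF-kB feedback and inflammation, 10 were tested. Of these, 4 lay above all earlier libraries (14.4% of all tested miRNAs did), namely the 3 miR-146 arms and miR-21-5p, and 1 lay below (18.3%), miR-155-5p. miR-21-5p, the most abundant of them, read 45530 to 61762 CPM and then 63274 and 79271 CPM (log2 fold change 0.43, SE 0.29, adjusted p = 0.535). The median of the list was 0.38, and miR-155-5p, miR-132-3p (-0.11) and miR-212-5p (-0.09) were its 3 members with negative fold changes. Without D16 replicate 2 the median was 0.11. miR-21-5p is also one of the fibroblast markers and made up most of their sum.

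miR-27b-3p, from the miR-23b/27b/24-1 cluster in an intron of AOPEP, read 2698 and 2424 CPM at D6, 3180 and 2713 CPM at D8, and 4106 and 4819 CPM at D16 (log2 fold change 0.70, SE 0.23, adjusted p = 0.122, 0.00244 in the 6-library fit), and it was also called without a filter. Its neighbour miR-23b-3p read 5800 to 6226 CPM and then 7963 and 6669 CPM (0.28, SE 0.18). miR-27a-3p, which has the same seed but lies in the cluster on chromosome 19, overlapped between the groups (0.17, SE 0.23). RS was higher than Ctrl for miR-27b-3p (log2 fold change 1.43, adjusted p = 0.000256), in a comparison where edgeR called 81 of 360 miRNAs (22.5%), 37 of them higher (10.3%).

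miR-181a-5p read 3892 to 4559 CPM and then 5263 and 5635 CPM (log2 fold change 0.40, SE 0.15, adjusted p = 0.219). RS held 10777 and 14364 CPM of it, so the D16 libraries lay between Ctrl, at 3192 and 3536 CPM, and RS. miR-503-5p, of the miR-424 and miR-503 cluster that represses G1 cyclins, read 1404 to 1586 CPM and then 1993 and 2046 CPM (0.45, SE 0.16, adjusted p = 0.166). In that cluster 5 of 6 tested members had positive fold changes (46.1% overall) and 1 lay above all 4 (14.4% overall). The median of 0.52 became 0.23 without D16 replicate 2, 0.92 without D16 replicate 1 and 0.26 after a correction for GC content. miR-210-3p, a hypoxia-responsive miRNA, read 1.96 to 13.6 CPM and then 25.9 and 28.7 CPM (1.90, SE 0.62, adjusted p = 0.122). It rested on 1 to 5 counts in each earlier library against 10 and 15 counts at D16, and its log2 fold change was 2.76 without D8 replicate 2 and 1.48 without D8 replicate 1. In the 6-library fit the adjusted p was 0.0228 for miR-181a-5p, 0.0186 for miR-503-5p and 0.0428 for miR-210-3p.

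At the imprinted 14q32 locus most of the listed miRNAs that were tested had positive fold changes. There, 57 of the 58 listed and tested miRNAs could be placed over 214.4 kb of chromosome 14, between 100852409 and 101066786. In its distal cluster, from miR-379 to miR-656, 53 members were on the list, 52 were in the table and 44 were tested. Of these, 35 had positive fold changes (46.1% of all tested miRNAs did). Above all 4 earlier libraries lay 17 (14.4% of all tested) and below them 0 (18.3%), and 8 were higher at an unadjusted p below 0.05 (5.83%) and 0 lower (7.5%). By adjusted p edgeR called 0 of them with TMM and the filter, and DESeq2 called 0. In other fits of all 36 libraries miR-379-5p was called with total counts and miR-410-3p without a filter, and 8 were called in the 6-library fit, all higher (5.81% of the miRNAs in that fit were called higher). The median log2 fold change was 0.31 against -0.06 overall. In the listed proximal group near MEG3 and RTL1, 13 of 14 tested were positive and the median was 0.24. Above all 4 lay 6 of them (14.4% of all tested) and below 0 (18.3%). The lists left out some tested miRNAs of the locus. Among these, miR-487b-5p lay below all 4 earlier libraries (log2 fold change -0.44 in the 6-library fit). miR-487a-5p (0.26 in that fit) and miR-410-5p (2.16 with all 36 libraries) lay above all 4.

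The members share transcripts and counting, so they are not independent of each other. Over the listed members of the distal cluster, the sum was 57019 to 59791 CPM in the 4 earlier libraries and 65534 and 66773 CPM at D16. Ctrl held 48673 and 43094 CPM. In the proximal group the sums were 26583 to 28560 CPM and then 32138 and 28949 CPM. Both sums were above all earlier ones, the proximal sum of D16 replicate 2 by a small margin. The distal median was 0.17 without D16 replicate 2 and 0.43 without D16 replicate 1.

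miR-410-3p, near the distal end at chr14:101065961-101065981 in an intron of MEG9, read 436 and 456 CPM at D6, 501 and 426 CPM at D8, and 660 and 967 CPM at D16 (log2 fold change 0.84, SE 0.26, adjusted p = 0.114), and its log2 fold change was 0.54 without D16 replicate 2. miR-494-3p read 4784 to 5569 CPM and then 6431 and 7435 CPM (0.47, SE 0.16, adjusted p = 0.146). miR-379-5p, the first of the cluster, read 2865 to 3191 CPM and then 4375 and 4741 CPM (0.57, SE 0.20, adjusted p = 0.148). Each was without overlap.

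The other members named by the rule were miR-411-5p (log2 fold change 0.52, SE 0.23), miR-299-5p (0.84, SE 0.37) and miR-668-3p (0.92, SE 0.38), each with both D16 libraries above all 4. Not every member did so. miR-323a-5p had a log2 fold change of -0.66 and miR-299-3p had -0.37, both with overlapping groups, and the abundant miR-127-3p of the proximal group had 0.10 (SE 0.15).

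**Figure D3:**
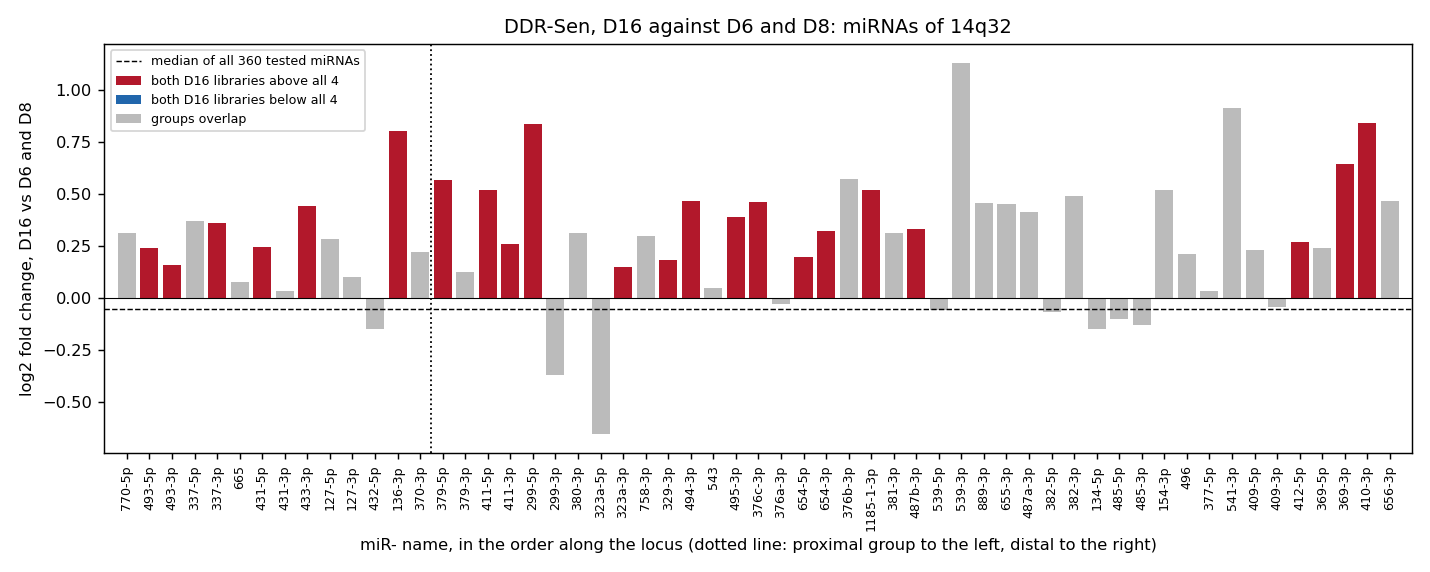
Log2 fold change of D16 against D6 and D8 (y axis) of 57 listed and tested miRNAs of 14q32 in their order along the locus (x axis, not to scale). Red bars mark miRNAs whose 2 D16 libraries lay above all 4 of D6 and D8. They occur in both the proximal and the distal group, and no bar is blue. Tested miRNAs of the locus outside the lists are not shown, among them miR-487b-5p, which lay below all 4. Most bars stand above the dashed median of all tested miRNAs (-0.06).

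Of the 3 most abundant miRNAs, let-7a-5p and miR-222-3p lay below all 4 earlier libraries and miR-100-5p overlapped with them. let-7a-5p, the leading miRNA of these cells, read 130007 to 149272 CPM and then 122952 and 97800 CPM, below all 4 (log2 fold change -0.33, SE 0.17, adjusted p = 0.404). miR-100-5p read 70031 to 78035 CPM and then 71581 and 77549 CPM (0.02, SE 0.15, 95% interval -0.28 to 0.31). In the let-7 and miR-98 group, 4 of 9 lay below all 4 (18.3% overall) and 1 above (14.4%), with a median of -0.33, which was -0.12 without D16 replicate 2. The members below were let-7a-5p, let-7c-5p, let-7d-5p and let-7e-5p, while let-7f-5p, let-7g-5p and let-7i-5p had fold changes of 0.03, 0.09 and 0.24. D16 replicate 2 held the lower value for each of the 4, with 13356 against 19572 CPM for let-7e-5p.

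The miRNAs induced by p53 had no call. All 6 tested members had negative fold changes (46.1% of all tested miRNAs were positive), with a median of -0.50 and 3 of them below all 4 (18.3% overall), and 0 had an unadjusted p below 0.05 in edgeR, while DESeq2 called 0. The main effector miR-34a-5p read 434 to 660 CPM and then 507 and 594 CPM (-0.03, SE 0.23). The median was -0.16 with a mean of at least 10 counts per miRNA or with every library thinned to the smallest total. The members with larger fold changes were low: miR-34c-3p read 7.83 to 29.5 CPM and then 5.18 and 7.66 CPM.

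In 9 further lists the median log2 fold change lay between -0.20 and 0.19, beside -0.06 for all tested miRNAs. These were the miR-26 and miR-101 group (0.07), the miR-23/27/24 clusters (0.08), the miR-181 family (0.10), the miR-30 family (0.11), the miR-99/100 and miR-125 group (-0.12), the miR-15/16 family (-0.14), the cluster of miR-532, miR-500a and miR-660 (-0.15), the miR-143 and miR-145 cluster (0.19) and the miR-199 and miR-214 group of mesenchymal cells (-0.20). In the last of these miR-214-3p read 2735 to 3597 CPM and then 2105 and 1969 CPM (log2 fold change -0.56, SE 0.23, adjusted p = 0.274). The miR-29 family had a median of 0.14, and names whose reads can derive from structural RNA had -0.38.

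**Figure D4:**
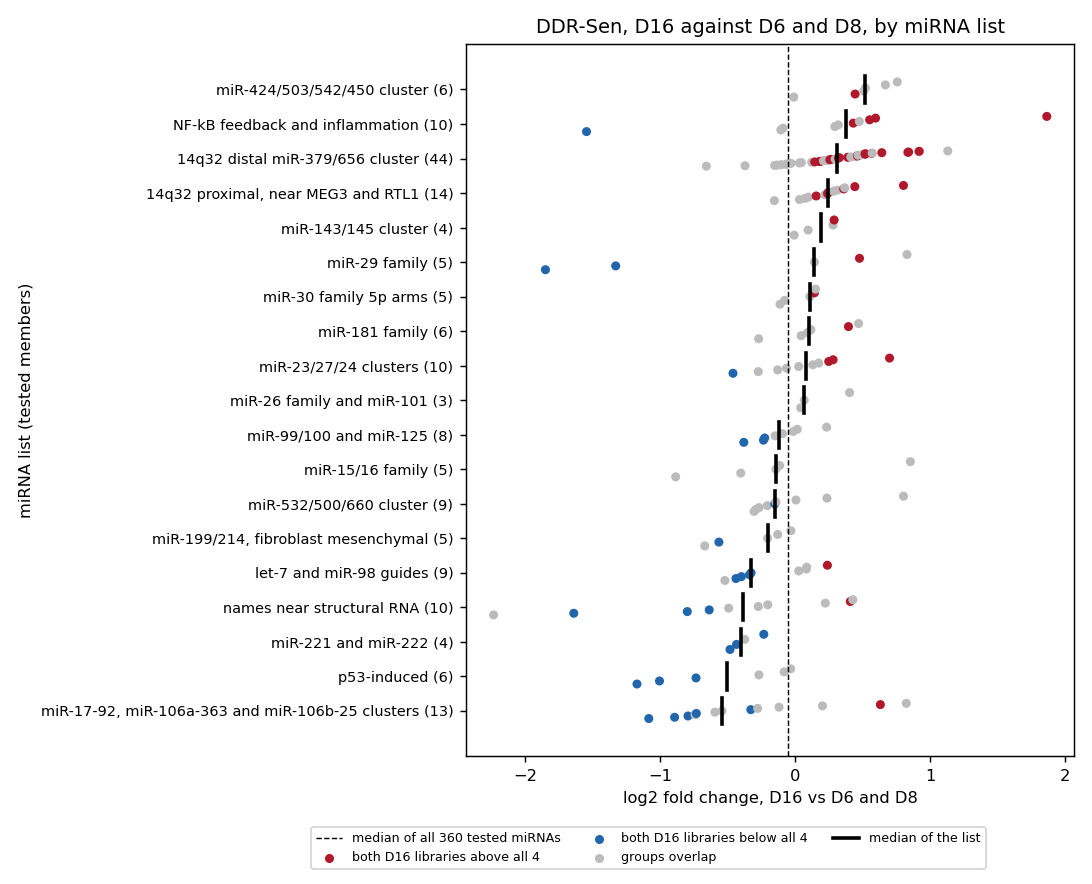
Log2 fold change of D16 against D6 and D8 (x axis) of the tested members of 19 miRNA lists (y axis, number of members in brackets), coloured as to whether the D16 libraries lay above or below all 4 of D6 and D8, with a bar at each list's median and a dashed line at the median of all 360. The medians run from -0.54 for the miR-17 clusters to 0.52 for the miR-424 and miR-503 cluster, and miR-155-5p lies at -1.55 in a list whose median is 0.38.

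The 6-library fit called 17 miRNAs beyond the 24, and of those named in the next sentences, miR-193a-5p, miR-1908-5p, miR-21-5p, miR-369-3p and miR-487b-3p were chosen after their values were seen. Among the lower ones were miR-193a-5p (log2 fold change -0.95 in that fit, adjusted p = 0.000955), miR-320a (-0.62, adjusted p = 0.00283) and miR-1908-5p (-1.63, adjusted p = 0.0186). The higher ones included miR-21-5p (0.45), miR-369-3p (0.67), miR-136-3p (0.84), miR-433-3p (0.46), miR-487b-3p (0.35) and miR-424-5p (0.80), and miR-424-5p was the 1 of the 40 whose groups overlapped. In the fit of all 36 libraries with TMM and the filter edgeR called 0 of the 17 by adjusted p, and without the filter it called miR-193a-5p.

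D6 and D8 themselves were compared at 2 libraries against 2, where the median SE of the log2 fold change was 0.40. A lack of calls at that size does not show that the 2 days were alike. After Benjamini-Hochberg adjustment edgeR called 0 of 360 miRNAs between D8 and D6, with 6 (1.67%) at an unadjusted p below 0.05 and 0 in DESeq2, and the smallest adjusted p was 0.661. For D16 against D6 alone edgeR called 3 miRNAs (0.833%), and against D8 alone 1 (0.278%), miR-155-5p. DESeq2 called more for D16 against D6, as counted in the closing section. For miR-155-5p the log2 fold change from D6 to D8 was -0.46 (SE 0.25, unadjusted p = 0.083 in edgeR).

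In PMD-Sen the same interval called 1 miRNA of 360 (0.278%). miR-146b-5p was upregulated at PMD-Sen D16, at 2297 and 1084 CPM against 453 to 1008 CPM at D6 and D8 (log2 fold change 1.38, adjusted p = 0.00105), and without PMD-Sen D16 replicate 1 or with only those 6 libraries in the fit no miRNA was called. There miR-155-5p read 2837, 3341, 3250 and 3083 CPM and then 2424 and 2231 CPM (-0.43, SE 0.22, adjusted p = 0.494). The difference between the inducers was tested directly. With all 36 libraries it passed for 0 of 360 miRNAs in edgeR (18 or 5% at an unadjusted p below 0.05, 0 in DESeq2). Its smallest adjusted p in that edgeR fit was 0.421, shared by miR-155-5p (DDR-Sen minus PMD-Sen -1.12, SE 0.31). With only the libraries of this difference in the fit, 1 miRNA was called.

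The fold changes of DDR-Sen D16 against D6 and D8 were set beside 2 comparisons that share no library with them. Across 360 miRNAs, which share library depth and base composition, Spearman's rho was 0.46 with the PMD-Sen interval and 0.46 with RS against Ctrl. Of the 48 miRNAs with an unadjusted p below 0.05, 44 had the same sign in PMD-Sen and 41 in RS, against 250 (69.4%) and 245 (68.1%) of all 360. Of the 40 called in the 6-library fit, 36 had the same sign in each. Exceptions with RS included miR-31-5p, at -0.66 here and 0.18 in RS against Ctrl, and miR-708-5p, at -0.83 and 0.84.

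The fold changes moved with base composition. Over 325 tested miRNAs with a RefSeq sequence (90.3%), rho between GC content and log2 fold change was -0.39 for D16 against D6 and D8 and 0.00 for D8 against D6. The median log2 fold change was 0.35 in the 48 miRNAs under 40% GC and -0.20 in the 69 with at least 60%. GC content also moved with the difference between replicates, replicate 2 minus replicate 1, with rho of 0.24 at D6, 0.21 at D8 and -0.21 at D16, and with PMD-Sen D16 against D6 and D8 (rho -0.29).

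When a GC trend was taken out of every library, a step chosen after seeing the data, edgeR called 6 miRNAs. They held the 3 of the main comparison together with miR-574-5p (adjusted p = 0.0239), miR-221-3p (0.0493) and miR-146b-3p (0.0239, higher at D16). Relative to the GC trend, 38 of 43 listed miRNAs of the distal 14q32 cluster and 13 of 14 of the listed proximal group were positive. Of all tested miRNAs with a sequence, 186 of 325 were.

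**Figure D5:**
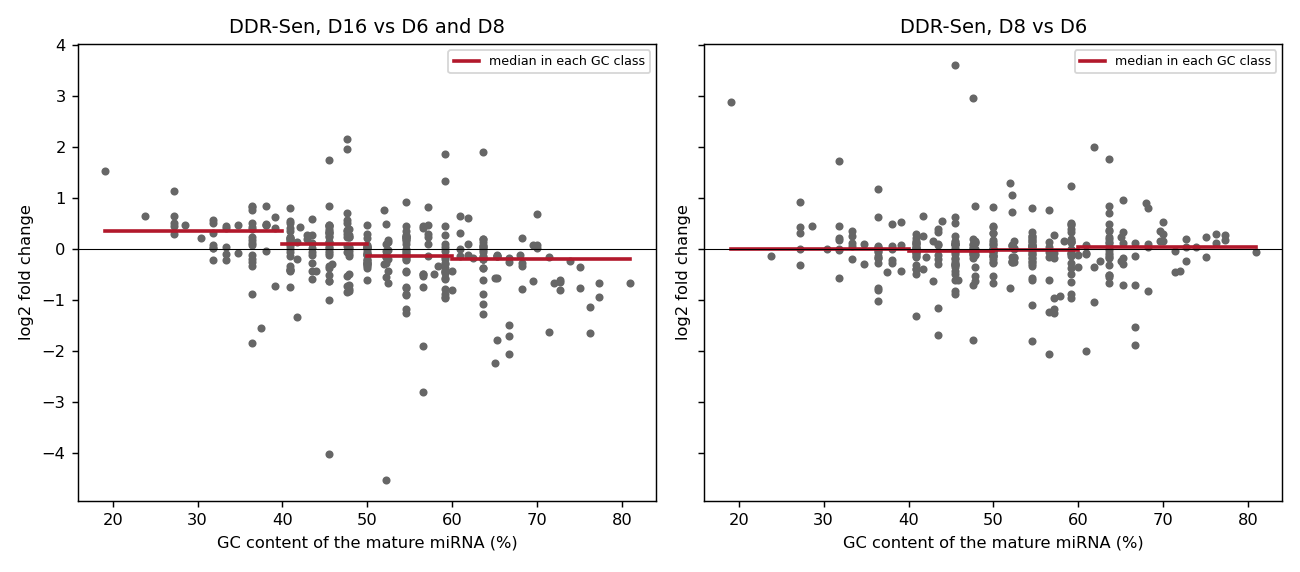
Log2 fold change (y axis) against the GC content of the mature miRNA in percent (x axis) for 325 tested miRNAs, for D16 against D6 and D8 (left) and for D8 against D6 (right), with the median of each GC class as a red line. On the left the medians step down from 0.35 under 40% GC to -0.20 at 60% or more, and on the right they stay near 0.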

How the data were processed

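Small RNA libraries of WI-38 cells were made from 100 ng of total RNA with 17 PCR cycles. According to the study's methods, the authors trimmed and mapped the reads to GRCh38 and counted miRBase miRNAs with exceRpt 4.6.2. The deposited table holds expected counts per miRNA, not normalized, and 1003 values that were not whole were rounded. edgeR 4.0.16 in R 4.3.3 was used with TMM, filterByExpr over 18 conditions and the quasi-likelihood test on all 36 libraries, with 1 coefficient per condition. A call was a Benjamini-Hochberg adjusted p below 0.05. DESeq2 1.42.0 was an alternative.

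Named miRNAs were the called ones without overlap between groups, filled by unadjusted p to 12 higher and 12 lower, the 3 most abundant and up to 2 members of each list with the smallest p. The samples, 22 lists and rules were chosen with earlier results of these data known. p-values measure the spread between 2 biological replicates per condition, and counting intervals cover counting error only. Sequences and positions came from RefSeq (GRCh38.p14) and host genes from GENCODE. The procedure was tested on simulated data. mRNA data were not analysed here.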

Additional observations from a re-analysis of the deposited data

Results flagged for a closer look

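miR-106b-3p had fold changes of opposite sign after the 2 inducers, and neither passed the adjusted test in edgeR. Both DDR-Sen D16 libraries lay below all 4 of D6 and D8, and both PMD-Sen D16 libraries lay above all 4 of theirs, with log2 fold changes of -1.08 (adjusted p = 0.0674) and 0.29 (adjusted p = 0.774). In PMD-Sen the gap was small, with at most 146 CPM at D16 and at most 141 CPM at D6 and D8. The difference, DDR-Sen minus PMD-Sen, was -1.38 and did not pass adjustment in the edgeR fit of all 36 libraries (adjusted p = 0.421).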

How the results depend on the processing

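For D16 against D6 and D8, edgeR called 3 miRNAs, and 6 with total counts, 6 without a filter, 40 with only the libraries compared, 5 with thinned libraries, 6 with the GC correction and 1 to 4 when single libraries were left out. All 3 were called by DESeq2's size factors and Wald test too. miR-155-5p was called in 15 of 15 alternatives, miR-29b-1-5p in 12 and miR-92a-3p in 11. At the study's thresholds the 12 miRNAs became 29 without a filter, 6 with a mean of at least 10 counts and 9 to 19 when single libraries were left out. The causes were not tested.

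In PMD-Sen the 1 call became 3 without a filter, 0 with only those libraries, 2 with the GC correction and 0 to 2 without single libraries. The difference between the inducers had 1 call with only its libraries, and DESeq2 called 11 for D16 against D6. The labels do not say whether the replicate numbers pair the samples, and r of replicate differences between days was -0.20 to 0.02. With a replicate block, D16 against D6 and D8 had 4 calls by adjusted p and 11 miRNAs at the study's thresholds. By adjusted p that block gave 1 call for the PMD-Sen interval and 0 for the difference between the inducers. It gave 0 for D8 against D6, 3 for D16 against D6 and 1 for D16 against D8. Of the 24 miRNAs named for a direction none reversed. They were named for groups without overlap, so leaving out a single library could hardly reverse them. Near 0 or at low counts, miR-100-5p changed sign (-0.043 to 0.12 without single libraries), as did miR-15b-3p (-1.07 to 1.69), miR-122-5p (-0.70 to 0.44), miR-1-3p (-0.88 thinned, -0.045 with the GC correction and -0.63 to 0.99 without single libraries) and miR-30d-5p (0.011 with total counts and 0.0046 without a filter). With 2 replicates per day, counts under about 10 per library limit any fold change.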
